A study of Homo sapiens with 6 samples.

Results

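The laminin chain genes LAMA3, LAMA5, LAMB1, LAMB2, LAMB3 and LAMC1, together with NID1, FN1 and TNC, are described here as a set of 9 genes among the 50868 genes of the table. They were chosen by name, as laminins and glycoproteins of the basement membrane or of the matrix beside it. Earlier results of these data were known when they were chosen. RNA came from B4G12, an immortalised line labelled as human corneal endothelium. The control group, siControl, holds 3 libraries of cells with the genotype WT that were given a control siRNA. The other group, siNAMPT, holds 3 libraries of cells labelled NAMPT knockdown that were given an siRNA against NAMPT, the enzyme that makes nicotinamide mononucleotide for NAD salvage. All 6 libraries come from 1 line and both groups received an siRNA. The sources used here do not give the siRNA sequences, their doses or the time after transfection. They also do not say whether replicates were separate cultures, so each p-value covers no more than the spread among these libraries, and that spread may be technical. In bulk RNA, fewer cells of a type and less RNA per cell cannot be told apart.

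Laminins are trimers of an alpha, a beta and a gamma chain that assemble inside the cell, are secreted, and polymerise into the sheet on which epithelial and endothelial cells sit. Laminin-332, which holds the LAMA3 and LAMB3 chains, anchors the hemidesmosomes of stratified epithelium, while trimers of LAMA5 with LAMB1 or LAMB2 and LAMC1 are found in most basement membranes, including Descemet's membrane under the corneal endothelium. Nidogens bind the gamma 1 chain and link the laminin sheet to type IV collagen. Fibronectin and tenascin C are matrix glycoproteins that cells lay down during wound repair and in fibrosis.

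The targeted gene NAMPT was read first. Levels are given as CPM, counts scaled to a common library total with TMM factors. NAMPT had 164, 170.0 and 184 CPM in siControl replicates 1 to 3 and 26.7, 29.05 and 29.6 CPM in siNAMPT, so its mean was 83.5% lower and no library went against its label. Total counts per library were 19510796 to 22364717. The cell type label was compared with marker genes. Of 17 corneal endothelial markers, 8 averaged under 1 CPM in both groups, among them COL8A1, COL8A2 and TFAP2B. TFAP2B had no count in any library, and COL8A1 reached 1.32 CPM in siControl replicate 2. The rest of the 17 averaged at least 1 CPM in siControl, siNAMPT or both. Markers of basal or stratified epithelium were high, with KRT5 at 1929 ± 110 CPM and KRT14 at 1599.7 ± 107 CPM in siControl (SD, n = 3 each). Of the 15 epithelial markers, 2 averaged under 1 CPM in both groups. The summed level of the 15 was 8286 to 8974 CPM in siControl and 9592 to 10788 CPM in siNAMPT, so it moved with the groups. The summed level of 11 stromal fibroblast markers was also higher, at 179 to 222 CPM in siControl and 274 to 337 CPM in siNAMPT. ALDH3A1 was the most abundant of them, and 6 of the 11 averaged under 1 CPM in both groups. For 6 vascular endothelial markers the summed level was 9.69 to 11.4 CPM and 13.4 to 15.3 CPM. Of these 6, 4 averaged under 1 CPM in both groups. The part of these marker lists in the values of the 9 genes was not tested. The corneal endothelial sum overlapped, at 2143 to 2179 CPM and 2051 to 2176 CPM. KRT12, the keratin of the corneal epithelium, had no count.

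All 9 genes passed the filter on low counts and were tested. In siNAMPT 3 of them rose (NID1, LAMB2 and LAMC1), 4 fell (LAMA3, LAMB1, TNC and FN1) and LAMA5 and LAMB3 did not pass the threshold, an adjusted p under 0.05 (edgeR's quasi-likelihood F-test, with p-values adjusted by Benjamini-Hochberg over all 15213 genes tested). The background was high, with 20.8% of all genes tested called higher and 21.9% called lower. The CPM of the 2 groups did not overlap for 7 of the 9 genes, where 54.9% of all genes tested did not overlap. The median log2 fold change of the 9 was −0.11, against 0.00017 over all genes tested. Of the 9, NID1 alone changed by more than 2-fold, and the calls of FN1 and TNC were lost in most alternative fits, as given with those genes.

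**Figure D1:**
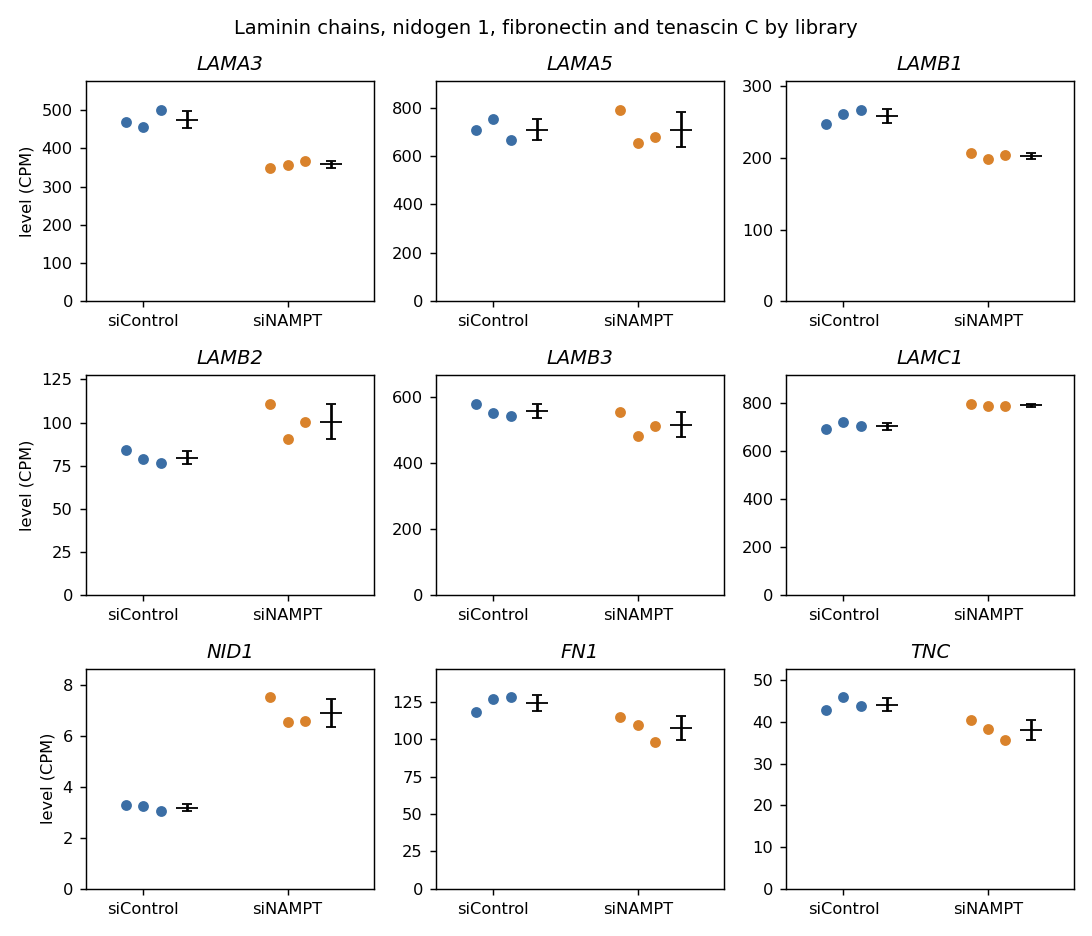
Level in CPM (vertical axes from 0, one panel per gene) of each of the 3 siControl and 3 siNAMPT libraries as points, with the group mean and SD (n = 3) as a black bar beside them. The siNAMPT points lie above all siControl points for LAMB2, LAMC1 and NID1, below them for LAMA3, LAMB1, FN1 and TNC, and overlap them for LAMA5 and LAMB3.

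Levels can be compared between genes only per length, and the deposited FPKM (fragments per length of gene and per library total) were used for this. In siControl the order of mean FPKM was LAMB3 (89.0), LAMC1 (72.7), LAMA5 (39.4), LAMA3 (28.05), LAMB1 (20.9), LAMB2 (5.77), FN1 (4.02), TNC (2.84) and NID1 (0.518). No neighbours in this order overlapped in their siControl libraries. In siNAMPT the order was the same, but LAMB3, at 78.1 to 88.7 FPKM, and LAMC1, at 82.4 to 83.0 FPKM, overlapped. The length behind the FPKM was longer than the longest coding transcript of GENCODE 29 by a factor of 1.04 for NID1 to 3.45 for FN1, which lowers the FPKM of such genes. With the transcript's length in its place, a setting chosen after seeing the data, LAMB1 (44.4) and LAMA3 (44.2) could not be ordered beyond their spread in siControl, nor could LAMB2 (13.9 ± 0.606) and FN1 (13.9 ± 0.690; SD, n = 3 each).

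The promoters of the member with the largest fall (LAMA3) and of the one with the largest rise (NID1) are shown to set them side by side, and that of FN1 because it held the only cAMP response element match among the 9. Each runs 5′ to 3′ on the gene's strand from 250 bases before to 50 bases after a RefSeq transcript start, in GRCh38.p14. Capitals mark matches to AP-1 (TGANTCA), the cAMP response element (TGACGTCA) or the GC box (GGGCGG), searched on both strands. LAMA3 is at chr18:23872770-23873069 on the plus strand, NID1 at chr1:236065041-236065340 on the minus strand and FN1 at chr2:215436019-215436318 on the minus strand.
LAMA3: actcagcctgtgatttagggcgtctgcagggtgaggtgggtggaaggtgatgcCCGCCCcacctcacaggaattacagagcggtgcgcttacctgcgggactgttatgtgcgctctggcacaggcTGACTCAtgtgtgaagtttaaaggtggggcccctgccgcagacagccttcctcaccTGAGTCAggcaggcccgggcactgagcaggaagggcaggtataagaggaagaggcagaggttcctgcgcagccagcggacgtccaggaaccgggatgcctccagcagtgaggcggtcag
NID1: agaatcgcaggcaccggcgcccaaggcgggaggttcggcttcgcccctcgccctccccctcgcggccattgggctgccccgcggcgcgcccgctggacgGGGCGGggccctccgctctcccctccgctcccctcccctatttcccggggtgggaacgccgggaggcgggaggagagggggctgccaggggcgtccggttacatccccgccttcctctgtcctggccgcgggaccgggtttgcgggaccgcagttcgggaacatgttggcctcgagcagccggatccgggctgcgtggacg
FN1: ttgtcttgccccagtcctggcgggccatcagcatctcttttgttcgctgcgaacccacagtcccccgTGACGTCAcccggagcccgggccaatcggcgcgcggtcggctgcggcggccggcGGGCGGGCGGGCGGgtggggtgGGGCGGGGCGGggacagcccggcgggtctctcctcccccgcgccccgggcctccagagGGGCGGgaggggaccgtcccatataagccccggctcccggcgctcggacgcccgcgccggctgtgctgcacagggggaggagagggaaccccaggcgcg

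The LAMA3 window lies inside the annotated gene, at a RefSeq start well after the first annotated one, and it holds 2 AP-1 matches, which begin 125 and 69 bases before the start. AP-1 is a dimer of FOS and JUN proteins. LAMB3 had an AP-1 match in 1 of its RefSeq windows, the other 7 genes had none, and 7.71% of 35116 human promoter windows of the same length hold one. The cAMP response element was found in FN1, 183 bases before the start, and in no other of the 9 genes, against 1.85% of all windows. The GC box was found in every window of the 9 genes, against 45.0% of all windows. The windows of the 9 genes held 53.7 to 82.7% G and C, against a median of 58.7% over all windows. The part of this content in the GC box matches was not tested. The TEAD word GGAATG on both strands (14.03% of all windows) and TATAAA on the gene's strand (7.33%) were found in none of the 9. A match is only a description of these letters.

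Among alpha chains, LAMA3 fell and LAMA5 did not pass the test. LAMA3 (ENSG00000053747; chromosome 18, 23689443 to 23955066, GRCh38) encodes the alpha chain of laminin-332 and binds the integrins of hemidesmosomes. It was at 469, 456 and 501 CPM in siControl replicates 1 to 3 and at 349.9, 357 and 367 CPM in siNAMPT. All siNAMPT libraries lay below all siControl libraries. The log2 fold change was −0.41 (SE 0.05, adjusted p = 7.83e-04), a level 1.33-fold lower. Counts per gene pool the long and short LAMA3 transcripts, so their balance was not measured.

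LAMA5 (ENSG00000130702; chromosome 20, 62307955 to 62367312) encodes the most widespread alpha chain of adult basement membranes. Its level was 706, 752 and 668 CPM in siControl and 791, 656 and 679 CPM in siNAMPT, so the groups overlapped. The log2 fold change was −0.00066 with a 95% confidence interval of −0.19 to 0.19 (adjusted p = 0.995). A change within those bounds is therefore compatible with these data. Exons of LAMA5 share 244 bases with those of ADRM1 on the opposite strand, and whether counting used strand is not given in the sources used here. ADRM1 counts were 4490 to 4769 in siControl and 2728 to 3359 in siNAMPT, and their part in the LAMA5 value was not tested.

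The beta chains went in different directions. LAMB1 (ENSG00000091136; chromosome 7, 107923799 to 108003255), the beta chain of early and widespread laminins, was at 247, 261 and 267 CPM in siControl and 207, 198 and 204 CPM in siNAMPT. The siNAMPT libraries were all lower, with a log2 fold change of −0.35 (SE 0.05, adjusted p = 0.00156). Exons of LAMB1 share 70 bases with those of DLD on the opposite strand. DLD counts were 2175 to 2459 in siControl and 2574 to 3033 in siNAMPT, and their part in the LAMB1 value was not tested. LAMB2 (ENSG00000172037; chromosome 3, 49121114 to 49133118), the beta chain of muscle, kidney and eye basement membranes, was at 84.1, 78.7 and 76.3 CPM in siControl and 111, 90.2 and 100.5 CPM in siNAMPT. All siNAMPT libraries lay above the siControl libraries, with a log2 fold change of 0.34 (SE 0.09, adjusted p = 0.0171). That call was lost without siControl replicate 2 (adjusted p = 0.0561) or siControl replicate 3 (0.0563).

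LAMB3 (ENSG00000196878; chromosome 1, 209614870 to 209652466), the beta chain found in laminin-332, did not pass the test. It was at 581, 552 and 542 CPM in siControl and 555, 481 and 514 CPM in siNAMPT, where replicate 1 lay within the siControl range. The log2 fold change was −0.11 (95% confidence interval −0.26 to 0.04, adjusted p = 0.192). In the fit that allowed for GC content and gene length, LAMB3 was called lower (−0.15, adjusted p = 0.0258).

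The gamma chain LAMC1 rose slightly. LAMC1 (ENSG00000135862; chromosome 1, 183023460 to 183145592), the gamma chain of most laminins, was at 689.97, 719 and 704 CPM in siControl and 798, 788 and 787 CPM in siNAMPT. Every siNAMPT library was higher, with a log2 fold change of 0.17 (SE 0.04, adjusted p = 0.0126), which is 1.12-fold. The call was lost without siControl replicate 1 (adjusted p = 0.0518).

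Because 1 alpha, 1 beta and 1 gamma chain make a trimer, chain ratios were also taken within each library, on FPKM. LAMA3 to LAMA5 was 0.706, 0.643 and 0.797 in siControl and 0.470, 0.578 and 0.574 in siNAMPT, so LAMA3 made up 41.6 ± 2.60% of their summed FPKM in siControl and 35.0 ± 2.65% in siNAMPT (SD, n = 3 each). LAMB1 to LAMB2 was 3.28, 3.70 and 3.91 against 2.08, 2.45 and 2.26. LAMB3 stayed the main beta transcript, at 76.9 ± 0.999% of the 3 beta chains' summed FPKM in siControl and 77.7 ± 0.437% in siNAMPT (SD, n = 3 each). That share depends on the length used. Per longest coding transcript it was 68.8 ± 1.17% in siControl and 69.4 ± 0.489% in siNAMPT (SD, n = 3 each).

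The ratio of LAMB3 to LAMB1 was higher in siNAMPT (5.29, 4.79 and 4.98 against 4.64, 4.17 and 4.001), and that of LAMB3 to LAMB2 was lower (11.0, 11.7 and 11.3 against 15.2, 15.4 and 15.6). Groups did not overlap in any of these 4 laminin ratios. The same share over other gene pairs was not taken, and 54.9% of single genes tested did not overlap. The ratios among LAMB1, LAMB2 and LAMB3 share genes, so they are not independent. For each of the 4 ratios, an exact two-sided permutation test gave p = 0.1, the smallest that 3 against 3 libraries allow. The adjusted p was 0.12 over the 6 planned ratios reported, so none can pass 0.05 in this design.

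**Figure D2:**
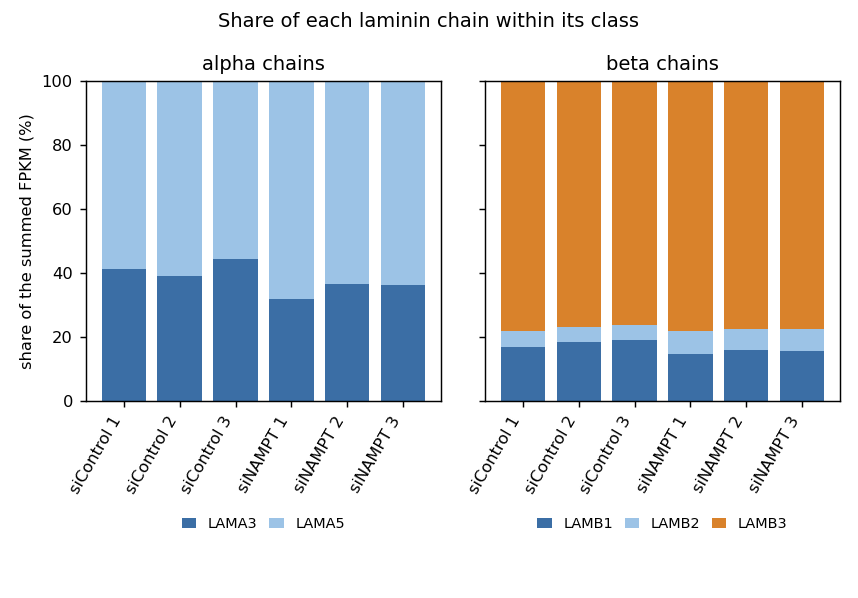
Share (%) of each laminin chain in the summed deposited FPKM of the alpha (LAMA3, LAMA5) and beta (LAMB1, LAMB2, LAMB3) chains, one stacked bar per library. LAMA3 is 39.1 to 44.3% of its pair in the siControl libraries and 31.97 to 36.6% in the siNAMPT libraries, while LAMB3 is 76.1 to 78.1% of the beta chains in all 6.

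NID1 (ENSG00000116962; chromosome 1, 235975830 to 236065162) encodes nidogen 1, the linker between laminin and type IV collagen, and was the lowest of the 9 genes. Its counts were 70, 69 and 66 in siControl and 167, 129 and 150 in siNAMPT, or 3.29, 3.26 and 3.04 CPM against 7.52, 6.55 and 6.61 CPM. All siNAMPT libraries lay well above all siControl libraries. The log2 fold change was 1.11 (SE 0.12, adjusted p = 4.57e-04), which is 2.16-fold. With limma on log2(FPKM + 1), a scale that shrinks low genes, it was 0.49 and still called.

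NID2, the other nidogen and no member of the set, went the opposite way. It was at 19.4, 23.2 and 22.9 CPM in siControl and 9.72, 10.5 and 9.34 CPM in siNAMPT (log2 fold change −1.15, SE 0.10, adjusted p = 1.76e-04). The NID1 to NID2 ratio of FPKM, a pair chosen after seeing the data, was 0.284, 0.235 and 0.221 in siControl and 1.29, 1.05 and 1.18 in siNAMPT. The ratio was higher in every siNAMPT library than in any siControl library (exact two-sided permutation p = 0.1, the smallest possible). Which nidogen was more abundant in siNAMPT depends on the length used, since the length behind the FPKM of NID2 was 2.12 times its longest coding transcript. Per transcript length the ratio was 0.109 to 0.139 in siControl and 0.514 to 0.634 in siNAMPT, so NID2 was then the higher of the pair in all 6 libraries. Exons of NID2 share 1915 bases with those of RTRAF on the opposite strand, whose counts were 2587 to 2872 in siControl and 1246 to 1404 in siNAMPT, and their part in the NID2 values was not tested. NID1 to LAMC1, nidogen against the chain it binds, was 0.00679 to 0.00750 in the siControl libraries and 0.0131 to 0.0148 in the siNAMPT libraries (exact permutation p = 0.1, adjusted p = 0.12).

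Genes whose 3′ UTR holds the 7-base word TACCATA or its shifted form ACCATAA were lower in siNAMPT in an earlier analysis of these data, so the medians given here are no independent evidence. Of 12182 tested coding genes with a 3′ UTR of at least 50 bases in GENCODE 29, 8.68% hold TACCATA, with a median log2 fold change of −0.28, against −0.0019 for the rest. None of the 9 genes holds either 7-base form. The shared core ACCATA, held by 24.5% of those genes, is in the 3′ UTR of NID1, which rose, and in none of the other 8 genes. The site is shown with the core in capitals, in 30 bases, 5′ to 3′, from the GENCODE 29 transcript. The core begins at base 1228 of the NID1 3′ UTR.
NID1: aaacatctcctgACCATAtcagtagctcgt

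FN1 (ENSG00000115414; chromosome 2, 215360440 to 215436172) encodes fibronectin, which cells bind through integrins with the beta 1 or alpha V chain. It was at 118, 127 and 128 CPM in siControl and 115, 109 and 98.4 CPM in siNAMPT. The siNAMPT libraries were all lower, with replicate 1 of each group close together. The log2 fold change was −0.21 (SE 0.07, 95% confidence interval −0.38 to −0.04) and the adjusted p of 0.04997 was just under the threshold. The call was lost in 10 of 12 alternative fits, among them DESeq2 (adjusted p = 0.0549) and 5 of the 6 fits that left out a library. The exception was the fit without siNAMPT replicate 1 (edgeR adjusted p = 0.0326), and the range over all 12 was 0.0298 to 0.144.

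TNC (ENSG00000041982; chromosome 9, 115019578 to 115118257) encodes tenascin C, a hexameric glycoprotein of healing wounds. Its level was 42.9, 45.9 and 43.8 CPM in siControl and 40.4, 38.2 and 35.7 CPM in siNAMPT, with no overlap. The log2 fold change was −0.21 (SE 0.07, adjusted p = 0.0471). This call was lost in 9 of 12 alternative fits, among them DESeq2 (adjusted p = 0.0709), with a range over the 12 of 0.0206 to 0.142. TNC to FN1 was 0.723, 0.719 and 0.680 in siControl and 0.701, 0.696 and 0.722 in siNAMPT, so the pair kept overlapping ratios (exact two-sided permutation p = 0.9; log2 difference −0.0017).

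**Figure D3:**
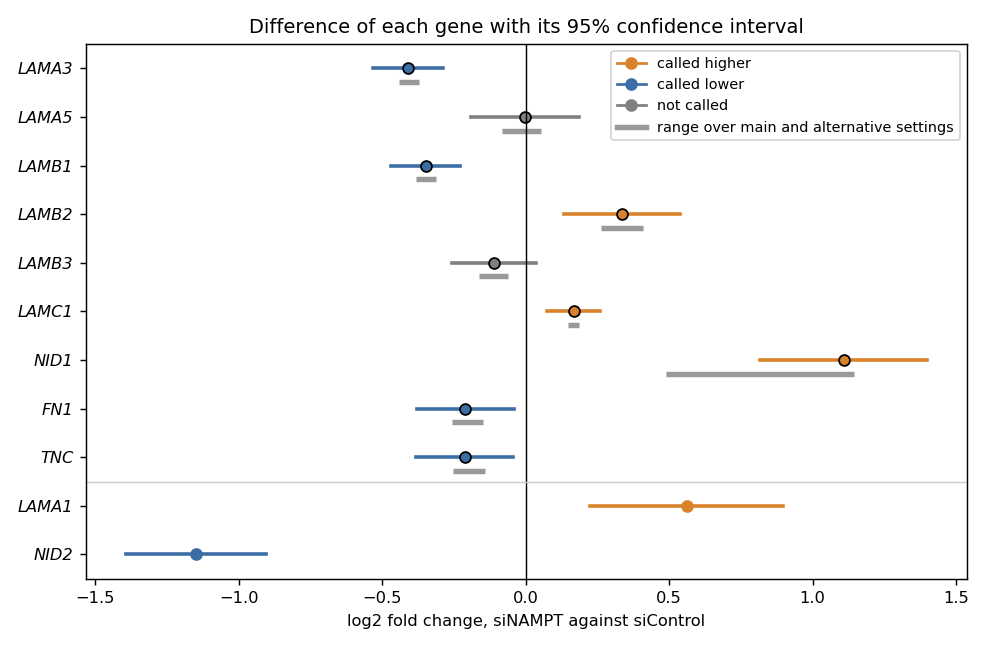
Log2 fold change (siNAMPT against siControl, horizontal axis) of the 9 genes (black-edged points) and of LAMA1 and NID2 below the line, with 95% confidence intervals from edgeR as coloured bars and, for the 9, the range over all fits as grey bars. NID1 lies farthest to the right at 1.11, and the intervals of LAMA5 and LAMB3 cross 0.

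siNAMPT replicate 1 was the highest library of its group for 8 of the 9 genes, all except LAMA3, while in siControl each replicate was the highest for 3. The same share over all genes tested was not taken, so this may be a trait of the library. Total counts in siNAMPT replicates 1 to 3 were 22362310, 19510796 and 22364717, and TMM factors of the 6 libraries lay between 0.988 and 1.02.

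Of 5 other laminin chains described here, 2 could be tested and 1 rose. LAMA1, an embryonic alpha chain, rose from 6.29 ± 0.581 to 9.29 ± 1.41 CPM (SD, n = 3 each; log2 fold change 0.56, adjusted p = 0.0170), a call lost without siControl replicate 1 (0.0552) or replicate 2 (0.0558). LAMA2, the muscle alpha chain, was at 0.9497 ± 0.217 and 0.584 ± 0.197 CPM (SD, n = 3 each) and was not called (adjusted p = 0.124). LAMA4, LAMB4 and LAMC3 were too low to be tested, at most 0.485 CPM in any library. LAMC3 had counts in 1 library only.

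Related genes came from 5 lists chosen for their roles. The counts called in each list stand beside 20.8% called higher and 21.9% called lower over all genes tested. Whether any list differed from those shares was not tested. In the list of 41 other matrix glycoproteins 25 could be tested, and 7 rose, 8 fell and 10 were not called (median log2 fold change 0.13). THBS3 (1.11), the corneal dystrophy protein TGFBI (0.57) and the guidance protein NTN1 (0.54) rose most among those with a mean of at least 1 CPM. The fibrillin FBN2 (−1.52), NID2 and CCN2 (−1.04), a matricellular YAP target, fell most. Perlecan (HSPG2, 0.29) and agrin (AGRN, 0.23), which are among the proteoglycans of the basement membrane and were picked after their values were seen, rose too.

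Of 25 receptors for laminin, fibronectin or tenascin 21 could be tested, and 4 rose and 9 fell (median −0.16). The integrin beta 1 chain ITGB1 fell from 279 ± 45.1 to 116 ± 18.3 CPM (SD, n = 3 each; log2 fold change −1.26, adjusted p = 5.28e-04), and so did ITGAV (−1.17) and ITGA3 (−0.86), which pairs with it to bind laminin-332 and LAMA5 laminins. The hemidesmosomal ITGB4 rose by log2 0.23 (adjusted p = 0.0218), and SDC4, a syndecan that binds fibronectin, rose from 199 ± 0.960 to 579 ± 20.1 CPM (SD, n = 3 each). ITGB6, of the receptor for fibronectin and tenascin C in wounded epithelium, rose 2.42-fold.

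Among 15 hemidesmosome genes and collagens of the basement membrane 14 could be tested, and 5 rose and 4 fell (median 0.10). COL7A1, the anchoring fibril collagen that binds laminin-332, rose from 79.7 ± 0.570 to 202 ± 11.4 CPM (SD, n = 3 each; log2 fold change 1.34). The collagen IV chains COL4A6 (0.81) and COL4A4 (0.75) rose, and COL12A1 (from 170.5 to 85.3 CPM), PLEC (−0.28) and COL4A2 (−0.24) fell. COL17A1, the hemidesmosomal collagen, rose by 0.67, and is named here after its value was seen. In the list of 27 genes of matrix processing and assembly 22 could be tested, and 7 rose and 5 fell (median 0.07). PLAT (0.95), MMP7 (0.84) and LGALS3 (0.52) rose, and ADAMTS1 (−1.73), LOXL2 (−0.59) and the collagen chaperone SERPINH1 (−0.43) fell.

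**Figure D4:**
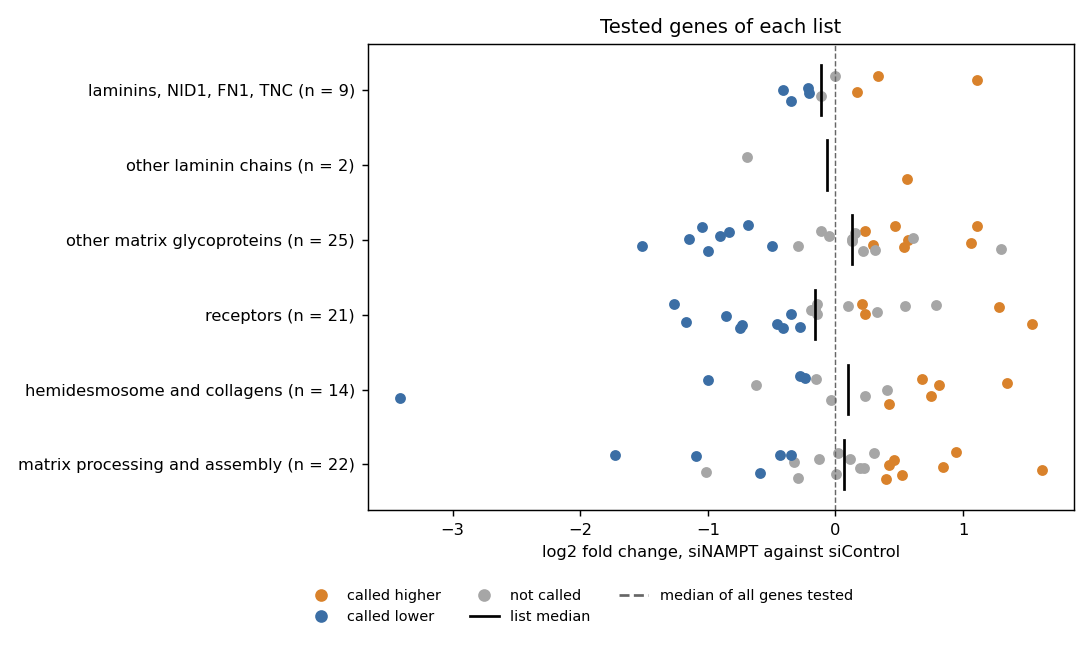
Log2 fold change (horizontal axis) of every tested gene in the set of 9 and in the 5 related lists (rows, with the number tested), coloured by call, with each list's median as a black line and the median of all genes tested dashed. Each of the 6 rows holds genes called higher, and all except the other laminin chains hold genes called lower.

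Genes with the most similar profile were looked up for NID1 and LAMA3 by Pearson's r of log2 CPM over the 6 libraries, among 5504 and 5503 genes with a mean of at least 5 FPKM. For NID1 the 3 highest included ELF3 and AQP3 (r of 0.999 or more each), and for LAMA3 they were RRN3 (0.999), COPS5 (0.999) and MRPL47 (0.998). The 6 libraries fall into 2 groups, and r was over 0.95 for 628 genes with NID1 and 616 with LAMA3. These r are a description, and the points share the difference between groups.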

How the data were processed

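RNA of 6 B4G12 libraries, 3 siControl and 3 siNAMPT, was selected for mRNA and sequenced in read pairs (Illumina NovaSeq), per the labels' protocols. The table that the authors deposited holds raw counts per gene, per its file header. It also holds FPKM deposited by the authors, which equal the count over a gene length and the library's total, the same length in all libraries to within 0.0780%. For the aligner, counter, strand setting and annotation, the state is: not given in the sources used here. Per the submitters' processing notes the builds were GRCh38 and mm10. The gene IDs are human, 98.5% of them are in GENCODE 29, and 94.8% of those have the identical GRCh38 position.

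Genes kept by filterByExpr (15213) were compared in edgeR 4.0.16 (R 4.3.3) by glmQLFTest after TMM scaling, two-sided, with Benjamini-Hochberg adjustment at 0.05. The SE is the log2 fold change over the root of F. For a gene not seen, 3 counts correspond to 0.134 to 0.154 CPM, which covers counting error only. Replicates differed by more than sampling noise, with a chi-square of 11.6 to 16.7 per gene. On data simulated for this comparison over 15030 genes, 4% of 1.25-fold, 38% of 1.5-fold, 88% of 2-fold and 100% of 4-fold changes were called. In that simulation 50 genes changed at each fold, far fewer than were called in the data. These shares therefore do not give the power of the real comparison.

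Alternatives were DESeq2 1.42.0, RLE size factors, no low-count filter, limma 3.58.1 on log2(FPKM + 1) with at least 1 FPKM in 3 libraries, the replicate number as a block, an offset from splines on GC content and length, and leaving out each library. The members and lists were chosen with earlier results of these data known. Named are all 9 genes, the other laminin chains, NID2, NAMPT, and from each list the 3 strongest called rises and the 3 strongest called falls among genes averaging at least 1 CPM, or fewer where a list had fewer. For the members with the largest rise and fall the 3 genes with the highest r are named too. Some items these rules would name, and the planned values that need them, are not reported here. Ratios were tested with scipy 1.17.1. Promoters came from RefSeq (GRCh38.p14), where 9 of 9 symbols matched.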

Additional observations from a re-analysis of the deposited data

How the results depend on the processing

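LAMA3, LAMB1 and NID1 kept their direction and their call in all 12 alternative fits, and no member changed direction in a fit where it was called. Of the 9 genes 4 were called lower, and 2 were with DESeq2, without the low-count filter or with limma on log2(FPKM + 1), 3 with RLE size factors and 5 with the offset for GC and length, which added LAMB3, while leaving out 1 library gave 2 to 4. FN1 and TNC were the lower calls lost. Of the other laminin chains 1 was called (LAMA1), and 0 to 1 when 1 library was left out. The 0 came in edgeR without siControl replicate 1 or without siControl replicate 2, where 1 and 2 chains had an unadjusted p under 0.05, and DESeq2 on all libraries called 1. The FPKM filter for limma left no other chain to test. The causes of the other losses were not tested. On simulated data the smallest fold used was called for 4% of changed genes. Far fewer genes changed there than were called in the data, so that share does not give the power of this comparison. How often small changes pass unseen with 3 libraries a group was not measured.

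Same-numbered libraries of the groups deviated together only weakly, with r of 0.0738, 0.0221 and 0.0259 over 11089 genes. The other pairs lay between −0.0679 and 0.0475, and siControl replicate 3 correlated best with siNAMPT replicate 2 (0.0475). Most of the other pairs lay below 0, which follows in part from taking deviations from each group's mean. The numbers were therefore not taken to pair the samples. With the replicate block 6336 genes were called, against 6500 without it, and of the 9 genes 3 were called higher and 2 lower.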

Other observations

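DAG1, which encodes dystroglycan, a receptor for the laminin alpha chains, varied widely within both groups. It was at 321, 81.8 and 27.7 CPM in siControl and 35.9, 360 and 349 CPM in siNAMPT, and was not called (edgeR log2 fold change 0.79, SE 0.99, adjusted p = 0.551). Of the basal epithelial markers, KRT15 rose from 266 ± 5.11 to 958 ± 52.7 CPM (SD, n = 3 each; log2 fold change 1.85), while KRT14 fell (−0.30). The matricellular genes CCN1 (−0.90) and THBS1 (−0.68) fell as well. They were named after their values were seen.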
